A study of Mus musculus with 48 samples.

Results

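Glutathione is made and kept reduced in the lung by a small set of enzymes and transporters, and 7 of the 47561 genes listed for mouse lung were chosen by name for these steps. Slc7a11 encodes the subunit of the cystine and glutamate exchanger that carries the transport. Gclc and Gclm encode the catalytic and the modifier subunit of glutamate cysteine ligase. Gss encodes glutathione synthetase and Gsr glutathione reductase. Ggt1 and Ggt5 encode gamma-glutamyl transferases of the cell surface. All 7 were found once, by symbol. They were chosen for their place in the pathway, but with earlier results of these data known, among them that Gclc differs between the strains at baseline.

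RNA from the whole lungs of 48 adult mice was sequenced, 3 mice in each of 16 groups. The groups combined 2 inbred strains, C3H/HeN (C3H) and C57Bl/6 (C57B), with sex, an injection and a gas. Each mouse was given 1 intraperitoneal injection of saline or of 25 mg/kg aurothioglucose (ATG), whose gold blocks thioredoxin reductase, and then spent 96 h in room air or in hyperoxia, which is more than 95% oxygen. The groups of male (M) and female (F) mice are named C3HM, C57BM, C3HF and C57BF. Saline in room air was taken as the baseline. In the series' own design text every mouse received ATG and C57B is the J substrain, whereas the study's methods name C57Bl/6N and describe mice without treatment, so the groups rest on the sample labels. No transgene or deletion was involved, and every mouse gave 1 library.

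Glutathione is a tripeptide of glutamate, cysteine and glycine. Glutamate cysteine ligase joins the first pair and is the rate-limiting step, and its modifier subunit lowers the amount of glutamate it needs and eases feedback inhibition by glutathione. Cystine taken up by the exchanger is reduced to cysteine, the amino acid in shortest supply, glutathione reductase returns oxidized glutathione to its reduced form with NADPH, and gamma-glutamyl transferase opens the breakdown of glutathione outside the cell, from which its amino acids can be taken up again. Nrf2, which binds antioxidant response elements (ARE), is known to drive Gclc, Gclm, Gsr and Slc7a11, and Atf4, which binds amino acid response elements, is known to drive Slc7a11.

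In GENCODE M21 on GRCm38 (also known as mm10), all 7 are protein coding genes. Gclc lies at chr9:77754535-77794485 on the plus strand, Gclm at chr3:122245557-122270732 on the plus strand, Gss at chr2:155563181-155592810 on the minus strand, Gsr at chr8:33652523-33698163 on the plus strand and Slc7a11 at chr3:49892526-50443614 on the minus strand. Ggt1, at chr10:75561604-75586200, and Ggt5, at chr10:75589340-75617200, are neighbours on the plus strand with 3139 bases between them. Of the 30-base sequences in the transcripts of Gss, 13.0% also occur in transcripts of other genes or on the opposite strand, and exons of Acss2 and of antisense transcripts overlap its exons. The shares were 7.06% for Gclm, 4.58% for Slc7a11, 0.0162% for Ggt5 and 0 for Gclc, Gsr and Ggt1. Whether strand was used in the authors' quantification is not given in the sources used here, so the values of Gss and Gclm can hold some reads of overlapping genes.

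Promoter sequence from RefSeq (GRCm38.p6) was at hand for 4 of the 7 genes, Gss, Slc7a11, Gclm and Ggt1, the last with 4 start sites. The 250 bases before the start are printed for 3 genes that rose in hyperoxia, to show which of 3 short motifs these windows hold. The motifs were searched on both strands and are an ARE core (TGACNNNGC), an amino acid response element (TGATGNAA) and an AP-1 site (TGANTCA, which can overlap the ARE core), and capitals mark each match. Among 32851 RefSeq promoter windows of this length, 10.2% hold the ARE core, 3.45% the amino acid response element and 6.75% the AP-1 site.
Slc7a11, chr3:50443614-50443863, minus strand: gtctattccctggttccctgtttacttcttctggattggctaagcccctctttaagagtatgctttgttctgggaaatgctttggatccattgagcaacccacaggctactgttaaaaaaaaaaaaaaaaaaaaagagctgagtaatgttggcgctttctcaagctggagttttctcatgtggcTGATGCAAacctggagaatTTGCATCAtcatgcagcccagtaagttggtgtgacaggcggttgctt
Gclm, chr3:122245307-122245556, plus strand: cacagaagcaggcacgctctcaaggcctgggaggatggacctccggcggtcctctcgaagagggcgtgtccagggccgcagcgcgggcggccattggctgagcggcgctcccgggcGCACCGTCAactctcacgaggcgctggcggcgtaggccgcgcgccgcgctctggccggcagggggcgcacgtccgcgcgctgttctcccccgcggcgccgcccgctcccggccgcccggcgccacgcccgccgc
Gss, chr2:155592811-155593060, minus strand: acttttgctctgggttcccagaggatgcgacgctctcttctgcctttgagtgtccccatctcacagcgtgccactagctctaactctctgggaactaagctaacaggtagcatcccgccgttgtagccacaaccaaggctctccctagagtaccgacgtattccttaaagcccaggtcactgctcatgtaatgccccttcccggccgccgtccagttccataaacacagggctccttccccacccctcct
The Slc7a11 window holds 2 amino acid response elements that face opposite ways, at bases 66 to 59 and 47 to 40 before the start. The Gclm window holds 1 ARE core, on the opposite strand, at bases 134 to 126 before the start. The Gss window holds none of the 3 motifs, and 2 of the 4 Ggt1 windows hold an ARE core. A match is a match of letters and not a shown binding site.

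The summed FPKM (a level per kilobase of transcript, relative to all mapped fragments of the library) was between 510933 and 748290 per mouse, and the number of reads is unknown. Mice 1 and 3, both saline C3HM in room air, stood apart from their group mate on the third principal component of all genes (scores of 65.1 and 57.7 against -3.23 for mouse 2). The calls for strain at baseline, for hyperoxia in saline mice and for its difference between strains are given with and without them. For sex, its interaction with strain and the ATG comparisons, values of single genes without them are not given. Markers of alveolar type 1, alveolar type 2, endothelial and fibroblast cells were all at 1 FPKM or more in every mouse. Between room air and hyperoxia several marker lists moved with the gas. The summed level of 5 alveolar type 2 markers was between 24053 and 48867 FPKM in room air and between 5697 and 21494 in hyperoxia, and that of 4 club cell markers between 58116 and 230701 in room air and between 6938 and 43640 in hyperoxia. The club cell marker Scgb1a1 by itself made up between 1.2% and 30.2% of the summed FPKM of a mouse. As FPKM is relative to the whole library, such a change also moves the values of other genes. The 4 red cell markers (Alas2 at 0 in every mouse) summed to between 2736 and 66615 in room air and between 294 and 1941 in hyperoxia, and the 4 heart muscle markers were between 5.21 and 718 in room air and between 3.27 and 61.2 in hyperoxia. In whole lung, fewer cells of a type and less RNA per cell cannot be told apart, and the part of cell makeup in the results on hyperoxia was not tested.

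**Figure D1:**
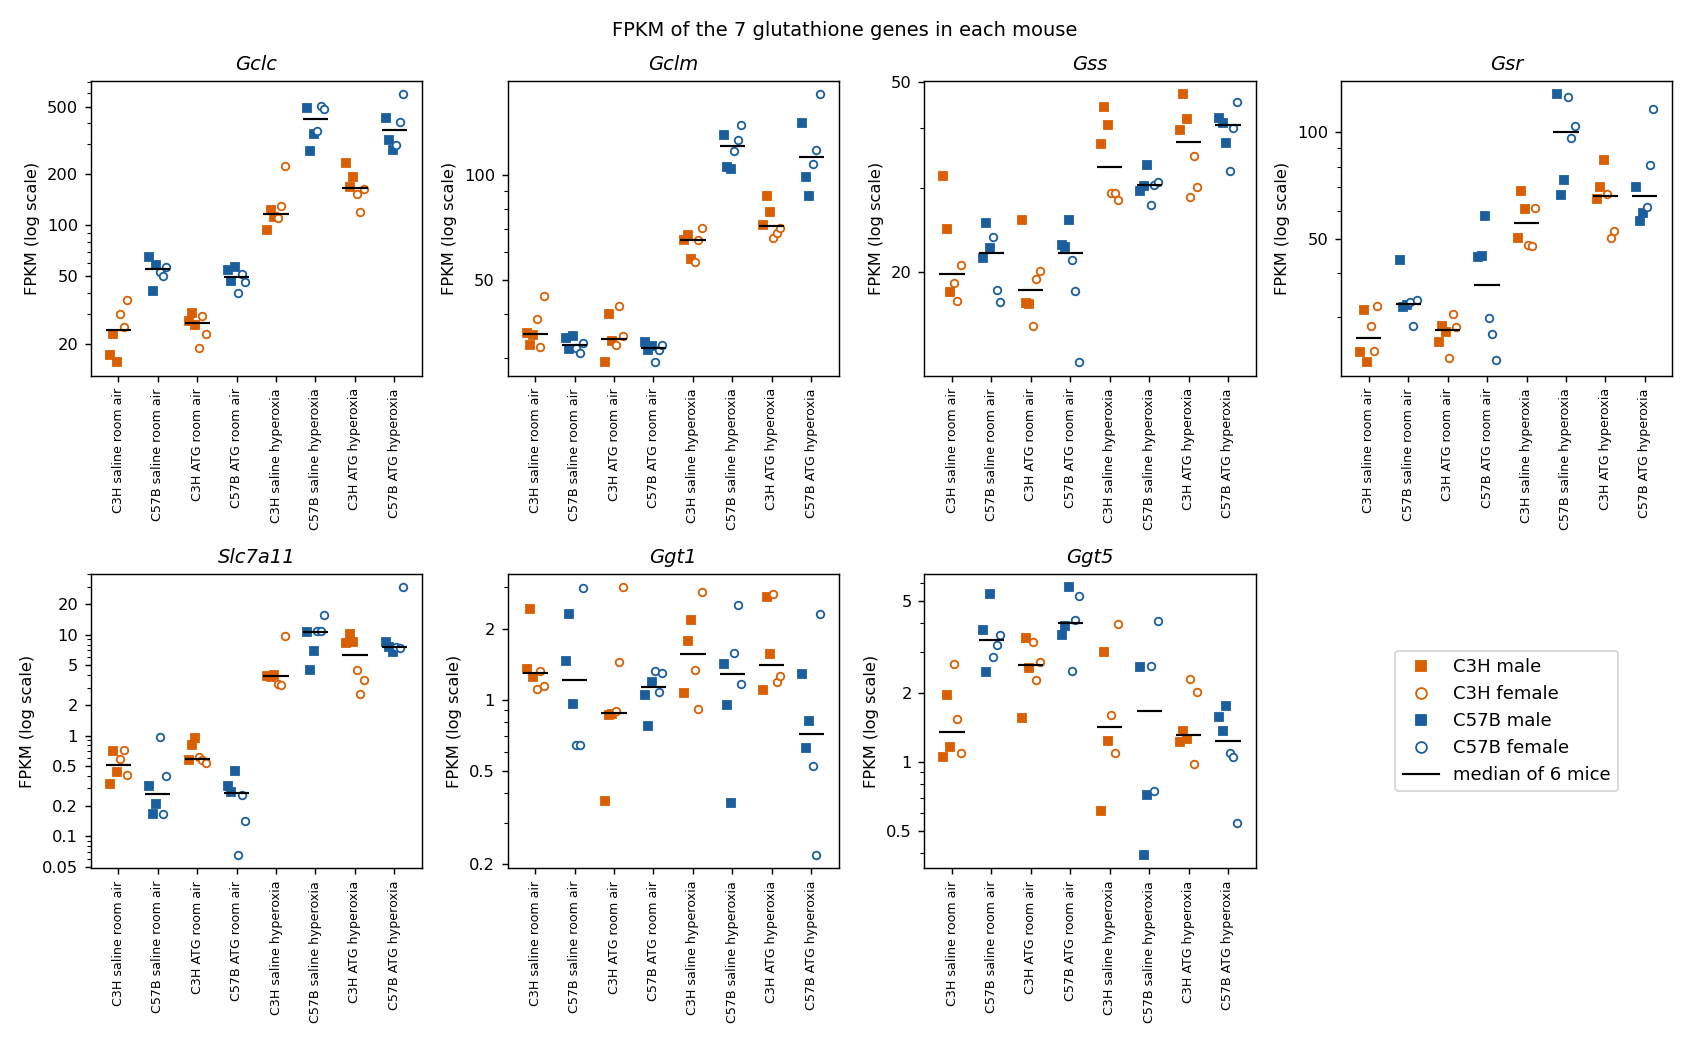
FPKM on a log axis of each of the 7 genes in each of the 48 mice, by strain, injection and gas; squares are males, open circles females and lines the median of 6 mice. Gclc, Gclm, Gsr and Slc7a11 sit higher in hyperoxia than in room air in both strains, Gclc sits higher in C57B than in C3H in all 4 conditions, and Ggt1 shows no such steps.

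Gclc was the most abundant of the 7 genes in hyperoxia. Its mean FPKM (± SD, n = 6 mice, both sexes) was 409 ± 95.1 in C57B saline hyperoxia, 385 ± 117 in C57B ATG hyperoxia, 171 ± 37.9 in C3H ATG hyperoxia and 132 ± 46.4 in C3H saline hyperoxia. In room air it was 54.2 ± 8.18 in C57B saline, 49.5 ± 6.27 in C57B ATG, 25.8 ± 4.31 in C3H ATG and 24.6 ± 7.80 in C3H saline. In this order, neighbours that differ only in the injection overlapped, and every other pair of neighbours had ranges that did not overlap.

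Gclm was expressed at a similar level in room air in both strains, with means of 36.4 ± 4.82 FPKM in C3H saline, 35.3 ± 4.83 in C3H ATG, 32.7 ± 1.48 in C57B saline and 31.8 ± 1.48 in C57B ATG (n = 6 each). In hyperoxia the means were 120 ± 13.9 in C57B saline, 120 ± 30.5 in C57B ATG, 73.7 ± 7.90 in C3H ATG and 63.5 ± 5.54 in C3H saline. The order thus turned between the gases, with C3H above C57B in room air by less than the spread and C57B above C3H in hyperoxia.

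Gss and Gsr moved over a narrower range. The means of Gss were between 19.1 ± 3.60 (C3H ATG room air) and 39.7 ± 4.4 FPKM (C57B ATG hyperoxia), and all 4 means in hyperoxia were above all 4 in room air, although every pair of neighbours in the order overlapped. The means of Gsr were between 27.1 ± 4.18 (C3H saline room air) and 99.1 ± 25.6 FPKM (C57B saline hyperoxia), again with every hyperoxia mean above every room air mean and with overlap between all neighbours.

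Slc7a11 and the transferases were low per length. Slc7a11 was below 1 FPKM in all 24 mice in room air, where its means were between 0.252 ± 0.134 (C57B ATG) and 0.674 ± 0.168 (C3H ATG), and between 4.66 ± 2.54 (C3H saline) and 11.2 ± 9.08 (C57B ATG) in hyperoxia. The lowest mouse in hyperoxia, at 2.59, was above the highest in room air, at 0.979. Ggt1 had means between 0.961 ± 0.746 and 1.77 ± 0.788 FPKM with overlap between all neighbours, and Ggt5 had means between 1.23 ± 0.432 (C57B ATG hyperoxia) and 4.18 ± 1.18 (C57B ATG room air).

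At baseline the question was how the strains and sexes differ, and Gclc and Ggt5 were lower in C3H than C57B. The study also reports Gclc as lower in C3H, so this difference was known beforehand. Gclc, the catalytic subunit, was at 17.3, 22.9 and 15.6 FPKM in C3HM and at 30.2, 25.3 and 36.3 in C3HF, against 65.1, 40.9 and 58.2 in C57BM and 53.4, 50.5 and 56.8 in C57BF. All 6 C57B mice were above all 6 C3H mice. The mean was 2.20 times as high in C57B, and the fitted difference (C3H minus C57B, log2(FPKM + 1)) was -1.15 (SE 0.14, limma, adjusted p = 0.000207).

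Ggt5, a transferase that acts on glutathione conjugates such as leukotriene C4, was at 1.05, 1.94 and 1.16 FPKM in C3HM and 2.66, 1.53 and 1.09 in C3HF. In C57BM it was at 3.74, 2.45 and 5.34, and in C57BF at 2.87, 3.22 and 3.58. In 5 of 6 C57B mice Ggt5 was above every C3H mouse, and the fitted difference was -0.82 (SE 0.19, limma, adjusted p = 0.0142). Without mice 1 and 3 it was -0.66 (adjusted p = 0.115) and no longer passed, whereas Gclc did, at -0.998 (adjusted p = 0.0037).

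These were 2 of the 6 genes tested, and 7.87% of all 15546 genes tested were lower in C3H at the same threshold. Of all calls, 33.2% were higher in C3H as deposited and 48.3% after median ratio scaling, under which both genes still passed. The other 4 tested differed by -0.31 (Gsr) to 0.14 (Gclm) and did not pass. Slc7a11 was under the filter on low values (genes entered a fit when 3 or more of its mice reached an FPKM of 1) and with no filter differed by 0.18 (adjusted p = 0.497). Leaving out mouse 2, so that only mice 1 and 3 remained as C3HM, brought Gsr to -0.39 (limma, adjusted p = 0.0268). Of the other genes of the pathway, Ggct, which releases amino acids from gamma-glutamyl peptides, and Ahcy, which makes homocysteine, were lower in C3H and Glrx, a glutaredoxin, was higher, while 0 of 9 Nrf2 targets and 0 of 8 Atf4 targets passed. The alveolar macrophage markers summed to between 169 and 357 FPKM in these C3H mice and 204 to 606 in C57B, the neutrophil markers to 133 to 310 and 179 to 766, and the alveolar type 2 markers to 25381 to 39588 and 34174 to 48867. The part of these cells in the strain difference was not tested.

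For sex, 0 of the 6 genes tested passed, with 0.669% of all genes past the threshold, and differences (male minus female) ran from -0.34 (Gclc) to 0.28 (Gss). At an unadjusted p under 0.05 limma gave 1 of the 6, Gclc, with an adjusted p of 0.181. Without mouse 2, which leaves only mice 1 and 3 as C3HM, Gclc passed, at -0.42 (limma, adjusted p = 0.0443). For the interaction of strain and sex, 0 of 6 passed and 0% of the 15546 genes did (2538 genes at an unadjusted p under 0.05). These backgrounds depended on the mice fitted. A fit without mouse 2 keeps only mice 1 and 3, which stood apart on all genes, as C3HM. Without mouse 2, 3640 genes passed for sex and 2741 for the interaction, against 104 and 0 with it, and 1915 and 748 did in the fit of all 48 mice. Gclc was again the 1 gene of the 6 under an unadjusted 0.05, with a strain difference in males that was 0.69 (log2) larger in size than in females (interaction -0.69, SE 0.28, adjusted p = 0.263).

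The mRNA levels of the 2 subunits of glutamate cysteine ligase stood in different ratios in the strains, and protein was not measured here. The ratio of Gclc to Gclm FPKM was between 0.450 and 0.807 (median 0.744) in C3H saline room air and between 1.29 and 1.91 (median 1.68) in C57B. In hyperoxia it was between 1.44 and 3.18 (median 1.96) in saline C3H and between 2.61 and 4.01 (median 3.37) in saline C57B. The ratio was below 1 in all 12 C3H mice in room air and above 1 in the other 36 mice. After ATG in room air the medians were 0.730 in C3H and 1.56 in C57B. These ratios of mRNA are a description, with no test of their own.

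**Figure D2:**
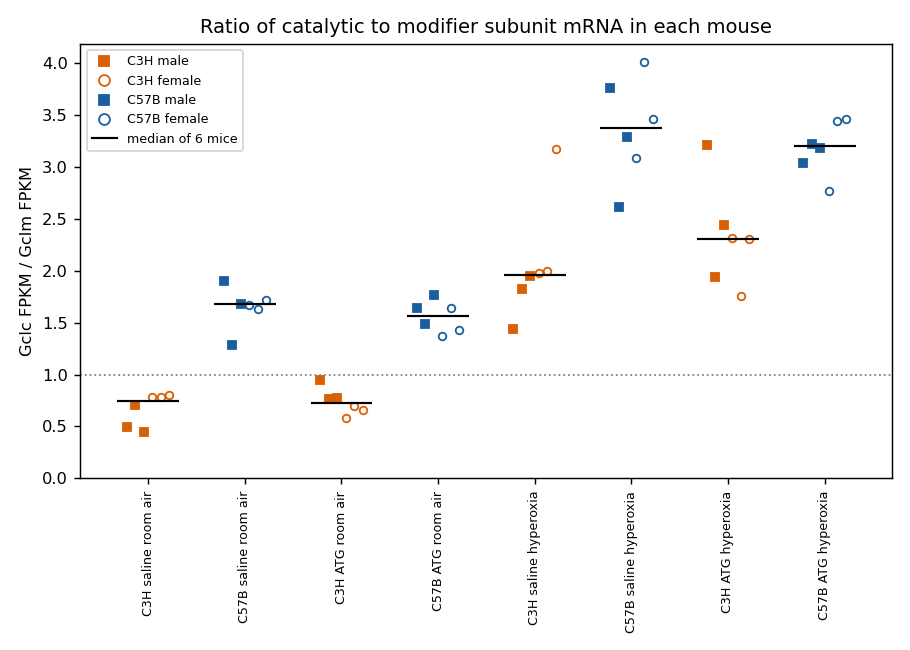
Ratio of Gclc to Gclm FPKM in each of the 48 mice by condition; squares are males, open circles females, lines the median of 6 mice, and the dotted line a ratio of 1. The C3H mice in room air lie below 1, with medians of 0.744 and 0.730, and all others lie above.

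Hyperoxia was compared with room air in the 24 saline mice, and 5 of the 7 genes rose. Gclc, in all 12 hyperoxia mice above all room air mice of its strain, rose by 2.62 (SE 0.12, limma, adjusted p = 8.77e-13) and was 5.36 times as high in C3H and 7.55 times as high in C57B. Slc7a11, the exchanger, had a median of 0.511 FPKM (0.333 to 0.722) in C3H in room air and 3.86 (3.17 to 9.79) in hyperoxia, and of 0.263 (0.166 to 0.979) and 10.8 (4.52 to 15.7) in C57B. The groups did not overlap in either strain, the fitted rise was 2.37 (SE 0.15, adjusted p = 9.15e-11), and the ratio of means was 8.79 in C3H and 26.7 in C57B. Since 1 is added before the logarithm, the fitted rise understates a change from levels this low.

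Gclm, the modifier subunit, rose by 1.32 (SE 0.06, adjusted p = 1.03e-12), with ranges of 32.1 to 45.0 FPKM in room air and 56.2 to 70.2 in hyperoxia in C3H, and of 30.9 to 34.6 and 104 to 139 in C57B. Gsr, the reductase, rose by 1.26 (SE 0.10, adjusted p = 2.88e-09), from a range of 22.4 to 32.2 FPKM to one of 47.9 to 68.1 in C3H and from 28.4 to 43.4 to 66.7 to 128 in C57B. For both genes the gases did not overlap in either strain.

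Gss, the synthetase, had the smallest rise that passed, 0.57 (SE 0.08, limma, adjusted p = 2.28e-06). Its values were 17.4 to 31.8 FPKM in room air and 28.2 to 44.3 in hyperoxia in C3H, where they overlapped, and 17.3 to 25.3 and 27.6 to 33.5 in C57B, where they did not. Ggt1 differed by 0.02 (adjusted p = 0.912) and Ggt5 by -0.35 (adjusted p = 0.161). Within strains Ggt5 differed by -0.80 (SE 0.30) in C57B and 0.10 (SE 0.30) in C3H, and the test between strains did not pass. The share of all 16321 genes that rose was 31.8%. Without mice 1 and 3 the same 5 genes rose, by 0.57 (Gss) to 2.55 (Gclc).

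Among the other genes of the pathway, Slc3a2, the partner that brings Slc7a11 to the cell surface, rose by 1.65 (SE 0.06, limma, adjusted p = 6.82e-14). Of all genes tested 28.3% fell. Of 9 genes for the supply of cysteine and glutamate, a list that holds Slc3a2, 5 rose and 3 fell (median 0.28, against 0.01 for all genes tested). Of 10 genes tested for glutathione breakdown 5 rose and 1 fell (median 0.38), of 6 for transport 3 rose (Abcc1, Abcc4 and Abcc5, which export conjugates and other anions) and 1 fell (Cftr, the chloride channel), and of 4 glutaredoxins 3 rose (Glrx, Glrx2 and Glrx3). All 8 Atf4 targets rose (median 1.74), and of 9 Nrf2 targets outside the pathway 6 rose and 2 fell (median 1.08).

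The strains differed in the size of the rise for 2 of the 7 genes, Gclm and Slc7a11. Gclm rose by 0.79 (SE 0.09) in C3H and 1.84 (SE 0.09) in C57B, and the difference of -1.05 passed (SE 0.12, limma, adjusted p = 3.53e-05). Slc7a11 rose by 1.80 (SE 0.22) in C3H and 2.94 (SE 0.22) in C57B, a difference of -1.13 (SE 0.30, adjusted p = 0.0208). Both rises were smaller in C3H. Of all genes 2.81% passed with a difference below 0, whether they rose or fell in hyperoxia. The other 5 genes differed between -0.50 (Gclc, limma, adjusted p = 0.187) and 0.90 (Ggt5, adjusted p = 0.165).

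The median of all genes for this difference was 0.15 as deposited and near 0 after scaling by median ratios, and the split of calls moved with it, from 1422 higher and 458 lower to 917 higher and 1084 lower. Gclm and Slc7a11 passed under both, at -1.24 and -1.23 after scaling. Without mice 1 and 3 they were -1.01 and -1.23 (adjusted p of 0.000422 and 0.039). Slc3a2 also rose less in C3H, with a difference of -0.60 (SE 0.12, adjusted p = 0.00478), as did Slc1a5, a glutamine transporter, and the Nrf2 targets Hmox1 and Osgin1, 2 of the 9 tested. Slc25a39, which carries glutathione into mitochondria, also had a lower value in C3H, while the difference was above 0 for Aox1, another of the 9, for Anpep, a peptidase, and for Cftr. Of the glutaredoxins and Atf4 targets, 0 of 4 and 0 of 8 passed. For sex, 0 of 7 genes differed in the rise, and 0 of 7 did at an unadjusted p under 0.05 in limma, where 0.0368% of all genes passed.

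**Figure D3:**
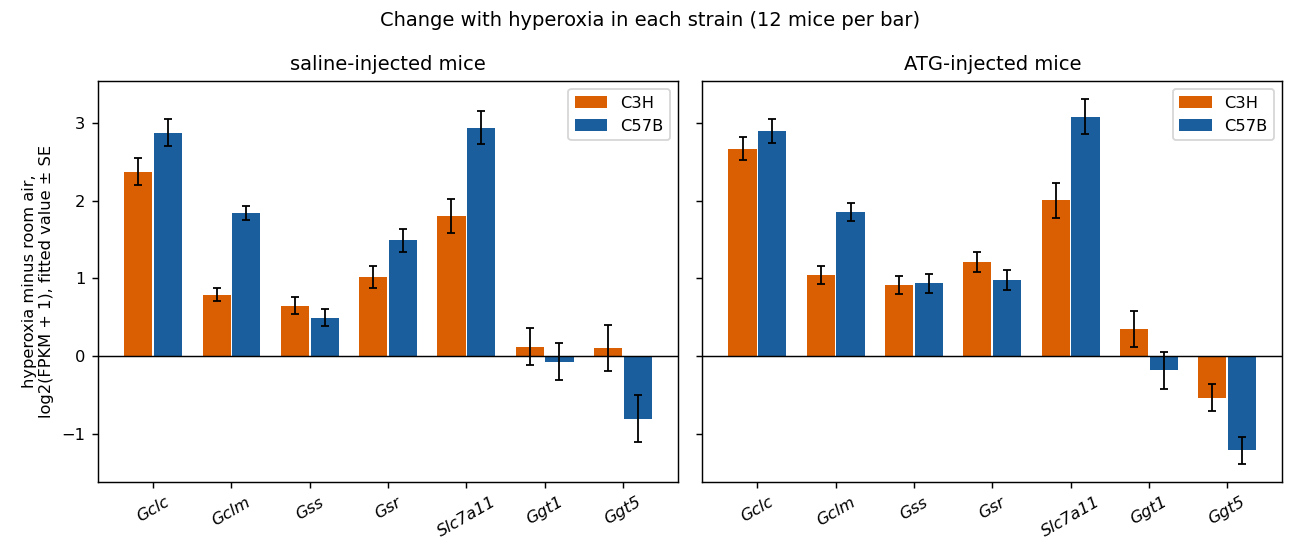
Fitted change with hyperoxia in log2(FPKM + 1) for the 7 genes in C3H (orange) and C57B (blue), in saline mice (left) and ATG mice (right); bars are fitted values from 12 mice and error bars their SE. In saline mice Gclm changed by 0.79 in C3H and 1.84 in C57B, and Slc7a11 by 1.80 and 2.94.

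Neutrophil markers (4 of 4 at 1 FPKM or more in every mouse) varied widely in hyperoxia. In saline C57B the summed level was 4798, 277 and 159 FPKM in the males and 3928, 2120 and 4079 in the females, and in saline C3H it was 188, 173 and 215 in the males and 177, 1455 and 6195 in the females. The pair of saline C57B mice with the lowest sums, mice 20 and 21, had the lowest Gclc (275 and 343 FPKM), Gclm (105 and 104), Gsr (66.7 and 73.5) and Slc7a11 (4.52 and 6.95) of their group, and mouse 33, with the highest sum among saline C3H, had their highest Gclc (223 FPKM) and Slc7a11 (9.79). Ranked from the highest value in hyperoxia, the mouse with the highest sum did not lead throughout. Mouse 34, highest in ATG C3H (2834 FPKM), ranked 5 of 6 for Gclc, 6 for Gclm, 3 for Gsr and 4 for Slc7a11. Mouse 19, highest in saline C57B, ranked 2 for Gclc and Gclm, 1 for Gsr and 4 for Slc7a11. Mouse 48, highest in ATG C57B, ranked 1 for each of these genes, and mouse 33 ranked 6 for Gss. Without mouse 33 the difference between the strains in the rise of Slc7a11 was -1.36 (limma, adjusted p = 0.00142).

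Mice 20 and 21, with neutrophil sums of 277 and 159, were set beside C3H mice with low sums, picked after the values were seen. Mice 20 and 21 had 275 and 343 FPKM of Gclc, and the 4 saline C3H mice with sums from 173 to 215 had between 93.4 and 122. For Gclm the same mice had 105 and 104 FPKM against 56.2 to 67.1. For Slc7a11 they had 4.52 and 6.95 against 3.27 to 3.98, and for Gsr, where the ranges overlapped, 66.7 and 73.5 against 48.0 to 68.1. In ATG mice in hyperoxia the neutrophil sums were 229 to 1062 in C57B and 154 to 2834 in C3H, and Gclc was 276 to 589 FPKM in C57B and 119 to 232 in C3H. Alveolar macrophage markers (5 of 5 at 1 FPKM or more in every mouse) moved with strain as well. In hyperoxia they summed to between 757 and 1815 FPKM in saline C57B and 271 to 831 in saline C3H, and to 675 to 1695 in ATG C57B and 96.8 to 445 in ATG C3H, where the strains did not overlap. Mice 20 and 21 were at 757 and 925, above the 271 to 410 of the 4 C3H mice with low neutrophil sums. The part of these cells in the strain difference was not tested.

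**Figure D4:**
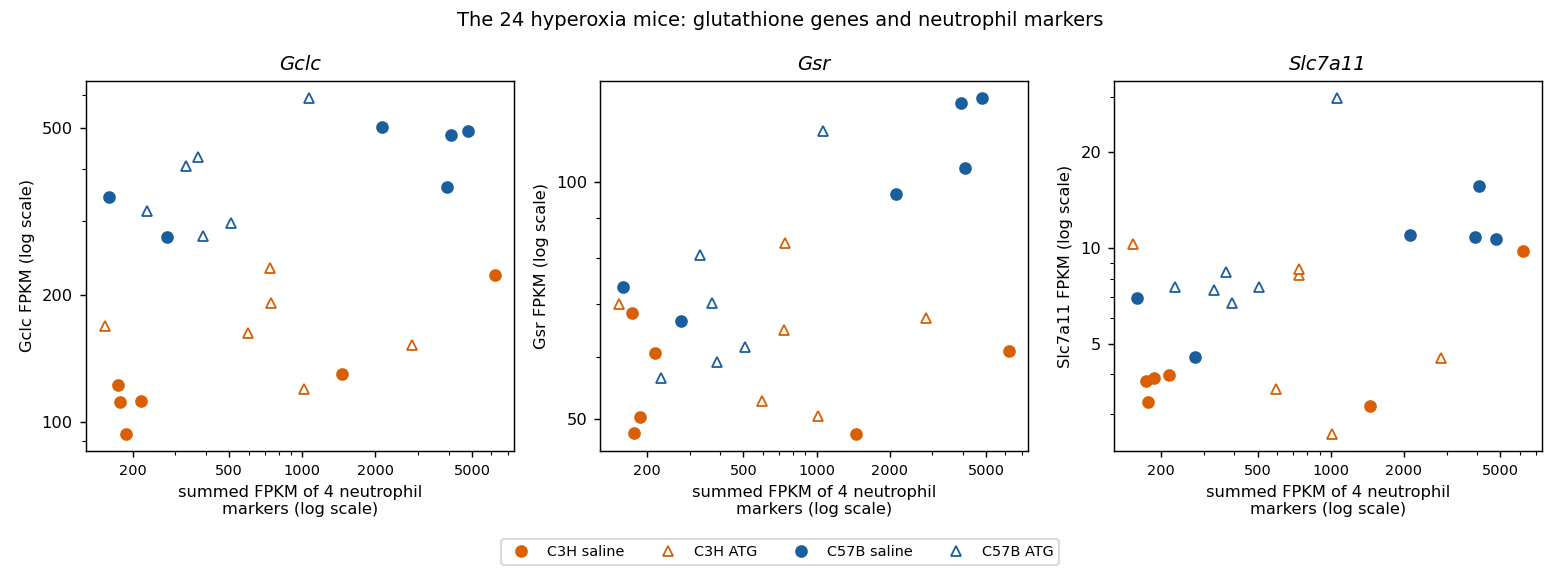
FPKM of Gclc, Gsr and Slc7a11 against the summed FPKM of 4 neutrophil markers in the 24 hyperoxia mice, both axes logarithmic; filled circles are saline mice and open triangles ATG mice, orange C3H and blue C57B. Gclc is at 275 to 589 in C57B and 93.4 to 232 in C3H, and the highest Slc7a11, 29.7 FPKM, is in a C57B mouse with a sum of 1062.

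ATG was compared with saline in room air to see how the injection acts without hyperoxia. Of the 6 genes tested 0 passed, with 0.0185% of all genes past the threshold. Thioredoxin reductase activity is not part of these data. The differences were between -0.17 (Ggt1) and 0.35 (Ggt5), and only Ggt5 was under an unadjusted 0.05 (limma, adjusted p = 0.69). Ggt5 was at 1.05 to 2.66 FPKM in saline C3H and 1.55 to 3.44 in ATG C3H, ranges that overlap.

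The effect of ATG did not pass a test of a difference between strains for any of the 6 genes (0 at an unadjusted p under 0.05 in limma, with 0% of all 16228 genes past the threshold and 743 at an unadjusted p under 0.05). It did not pass between sexes either (0 of 6, with 0.00616% of all genes), although Gclc (0.57, SE 0.18) and Gsr (0.40, SE 0.16) were under an unadjusted 0.05 with adjusted p of 0.677 each. Slc7a11 was again under the filter, and with no filter ATG changed it by 0.01 (adjusted p = 0.991).

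In hyperoxia ATG raised 1 of the 7 genes, Gss. In C57B Gss was at 27.6 to 33.5 FPKM after saline (median 30.4) and 32.5 to 45.3 after ATG (median 40.5), and 5 of 6 ATG mice were above every saline mouse. In C3H it was at 28.2 to 44.3 (median 33.2) after saline and 28.7 to 47.1 (median 37.4) after ATG, ranges that overlap widely. The fitted difference over both strains was 0.23 (SE 0.06, limma, adjusted p = 0.0247), beside 3.89% of all 15860 genes that were higher. The call ended in the fit of all 48 mice (0.23, adjusted p = 0.0869), after quantile normalization (0.18, adjusted p = 0.0687) and after scaling by median ratios (0.17, adjusted p = 0.123). The last also turned the split of all calls from 617 higher and 251 lower to 262 higher and 369 lower.

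Averaged over strain and sex, the other 6 genes differed by -0.17 (Ggt5) to 0.18 (Slc7a11) between ATG and saline in hyperoxia. Within strains Gsr differed by -0.42 (SE 0.16) in C57B and 0.20 (SE 0.16) in C3H. Gclc differed by 0.40 (SE 0.19) in C3H and -0.10 (SE 0.19) in C57B. Slc7a11 was at 3.81 to 3.98 FPKM after saline and 8.24 to 10.3 after ATG in C3HM. In C3HF it was at 3.17 to 9.79 and 2.59 to 4.49. Whether the effect of ATG in hyperoxia differed between strains or sexes was not tested. Among the pathway lists, Chac2 and Lap3 (peptide breakdown) and Glrx3 (a glutaredoxin) were higher with ATG and Dpep2, a dipeptidase, was lower, and 0 of 9 Nrf2 targets and 0 of 8 Atf4 targets passed.

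Within ATG mice hyperoxia raised the same 5 genes as in saline mice and lowered Ggt5. The rises were 2.78 (SE 0.10) for Gclc, 2.54 (SE 0.16) for Slc7a11, 1.45 (SE 0.08) for Gclm, 1.09 (SE 0.09) for Gsr and 0.93 (SE 0.08) for Gss, with adjusted p from 1.83e-14 (Gclc) to 7.79e-09 (Gss) in limma. For Gsr the gases overlapped in C57B, with up to 57.9 FPKM in room air and from 56.3 in hyperoxia. Ggt5 fell by 0.87 (SE 0.12, adjusted p = 2.67e-06). In C57B it was at 2.49 to 5.74 FPKM in room air and 0.541 to 1.76 in hyperoxia, without overlap, and in C3H at 1.55 to 3.44 and 0.978 to 2.29, with overlap. The background was 35.8% of 16206 genes higher and 26.0% lower. All 8 Atf4 targets rose again (median 1.83), and of 9 Nrf2 targets 6 rose and 2 fell. Of the other lists, 7 of 10 breakdown genes, 5 of 9 supply genes, 5 of 6 transport genes and 3 of 4 glutaredoxins rose, and 2, 2, 0 and 0 fell. Slc3a2 rose by 1.64 (SE 0.05, adjusted p = 3.9e-15).

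Whether the rise differed between ATG and saline mice was tested over all 48 mice, and 0 of 7 genes passed, with 2.77% of all 16994 genes past the threshold (56.4% of these higher as deposited and 32.9% after median ratio scaling). At an unadjusted p under 0.05 limma gave 2 of the 7, Gss (0.35, SE 0.11, adjusted p = 0.0786) and Ggt5 (-0.52, SE 0.25, adjusted p = 0.25). Gss passed when mouse 3, 4 or 40 was left out, with values of 0.40, 0.40 and 0.39 and adjusted p of 0.0376, 0.0351 and 0.0439.

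The strains were then compared in each of the other conditions, and Gclc was lower in C3H in all of them. After ATG in room air Gclc was at 19.0 to 30.6 FPKM in C3H and 39.9 to 57.2 in C57B, a difference of -0.92 (SE 0.11, limma, adjusted p = 0.000136). In saline hyperoxia it was at 93.4 to 223 and 275 to 503, a difference of -1.65 (SE 0.19, adjusted p = 0.000115), and in ATG hyperoxia at 119 to 232 and 276 to 589, a difference of -1.15 (SE 0.17, adjusted p = 0.000466). In none of the 4 conditions did the strains overlap.

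After ATG in room air 2 of the 6 genes tested were lower in C3H, against 10.3% of all genes. Beside Gclc this was Gsr, at 23.1 to 30.7 FPKM in C3H. In C57B Gsr split by sex, with 44.3, 44.6 and 57.9 FPKM in the males and 29.8, 26.9 and 22.8 in the females, so only the males were above the C3H mice. The fitted difference was -0.39 (SE 0.10, adjusted p = 0.0195), and in a fit of all 48 mice its adjusted p was 0.0526. The neutrophil sums of the same C57B mice were 1557, 1792 and 3596 FPKM in the males and 272, 258 and 219 in the females, and their part was not tested. Of the pathway genes, Ggt6, Ahcy and the Nrf2 target Gsta3 were lower in C3H. Slc1a1, Cftr, the Nrf2 target Ces1g and the Atf4 target Asns were higher, beside 1230 of all 15374 genes tested. Leaving out mouse 40 brought Ggt5 to -0.61 (adjusted p = 0.0322), from -0.50 (adjusted p = 0.084).

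Slc7a11 went the other way in room air. After ATG it was at 0.535 to 0.954 FPKM in C3H and 0.0657 to 0.448 in C57B, so that all 6 C57B mice were below all 6 C3H mice. With no filter on low values the difference was 0.42 (SE 0.07, limma, adjusted p = 0.00466). At baseline the same ranges were 0.333 to 0.722 and 0.166 to 0.979, and they overlapped.

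In saline hyperoxia 4 of the 7 genes were lower in C3H, against 12.2% of all genes. Gclm differed by -0.91 (SE 0.09, limma, adjusted p = 3.73e-05) and its ranges, 56.2 to 70.2 and 104 to 139 FPKM, did not overlap. Gsr differed by -0.78 (SE 0.16, adjusted p = 0.00401), with 5 of 6 C57B mice above every C3H mouse. Slc7a11 differed by -0.96 (SE 0.25, adjusted p = 0.0159), with 4 of 6 C57B mice above every C3H mouse, and its partner Slc3a2 by -0.33 (SE 0.08, adjusted p = 0.00944). The other 3, Gss, Ggt1 and Ggt5, differed by 0.08 to 0.22 and did not pass.

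Among the lists in saline hyperoxia, 4 of 8 Atf4 targets (Asns, Psat1, Phgdh and Cebpb, the first 3 of which make amino acids) and 4 of 9 Nrf2 targets were lower in C3H. A further 3 Nrf2 targets were higher, beside 16.0% of all genes. Of 9 supply genes 4 were lower and 2 higher, of 10 breakdown genes 3 and 1, and of 6 transport genes 2 and 1.

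In ATG hyperoxia 2 of the 7 genes were lower in C3H, Gclc and Gclm, against 12.9% of all genes. Gclm was at 65.8 to 87.2 FPKM in C3H and 86.7 to 170 in C57B, with 5 of 6 C57B mice above every C3H mouse (difference -0.67, SE 0.13, limma, adjusted p = 0.00355). Slc7a11 differed by -0.65 (adjusted p = 0.108). It reached 29.7 FPKM in mouse 48 against 6.70 to 8.40 in the other 5 C57B mice, and without mouse 48 the difference was -0.34 (adjusted p = 0.0695). Ggt1, at 0.53 (adjusted p = 0.158), was higher in C3H without mouse 48, at 0.74 (limma, adjusted p = 0.0274). Gsr differed by -0.16 (adjusted p = 0.431). Of the other genes, 5 of 8 Atf4 targets and 5 of 9 Nrf2 targets were lower in C3H and 1 Nrf2 target was higher, beside 14.3% of all genes higher. Of 9 supply genes 4 were lower and 2 higher, of 10 breakdown genes 3 and 1, of 6 transport genes 1 and 1, and of 4 glutaredoxins 0 and 1. The comparisons in the 4 conditions use different mice, but whether the strain difference changed from saline to ATG in hyperoxia was not tested.

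**Figure D5:**
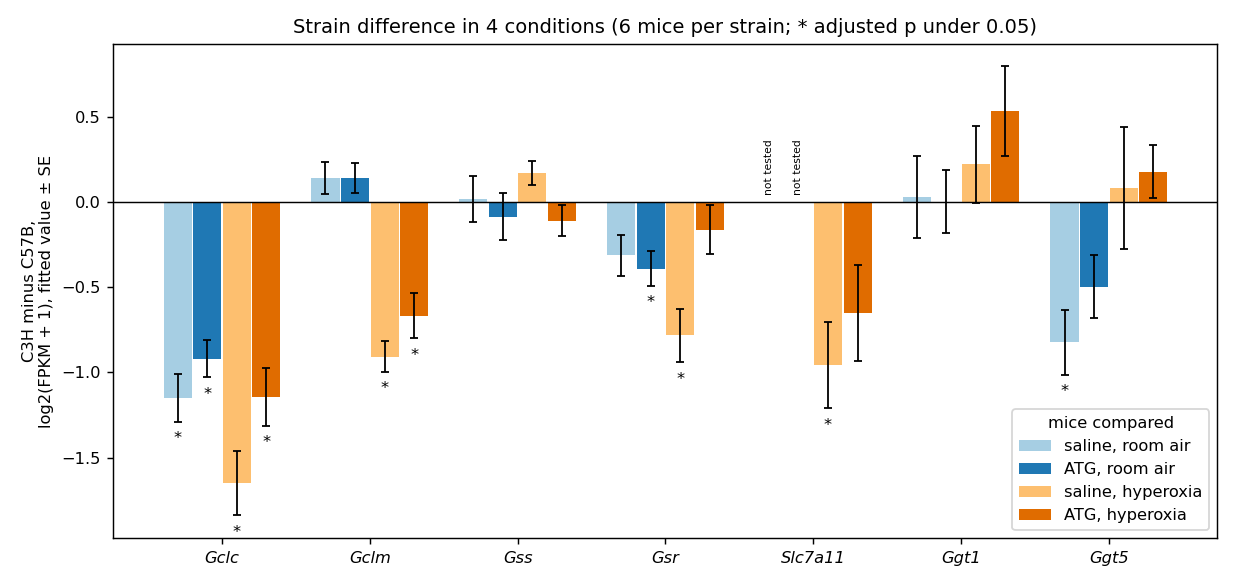
Fitted difference C3H minus C57B in log2(FPKM + 1) for the 7 genes in each of 4 conditions, from 6 mice per strain; error bars are SE and stars mark an adjusted p under 0.05. Gclc is below 0 in all 4 conditions, from -0.92 to -1.65, and Gclm is below 0 in hyperoxia and 0.14 in room air.

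Over the 48 mice, the genes that rose in hyperoxia varied together, as mice in the same gas and strain do. Pearson's r of log2(FPKM + 1) was 0.955 for Slc7a11 and Gclm, 0.938 for Gclc and Gclm, 0.929 for Gclc and Gsr, and 0.738 to 0.786 for Gss with the other 4. Ggt1 was at -0.003 to 0.133 with these 5 and Ggt5 at -0.574 to -0.305. The neighbouring Ggt1 and Ggt5 had an r of 0.088, and their FPKM ratio (Ggt5 to Ggt1) was between 0.235 and 5.56 over the mice.

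The genes whose levels were most like those of a member are given for description over the same 48 mice, which share strain, sex, injection and gas. For Gclc these were Odc1, Rsl1d1 and Txnrd1 (r = 0.973 each), of which Odc1 makes polyamines and Txnrd1 is thioredoxin reductase, the target of ATG. For Gsr they were Pgd, an NADPH-producing enzyme of the pentose phosphate pathway (0.940), Txnrd1 (0.938) and H3f3b (0.937). For Slc7a11 they were Akr1b8, an aldo-keto reductase (0.961), Srxn1, sulfiredoxin (0.958), and Pgam5 (0.957). For Gclm they were Eif4ebp1 (0.967), Esd (0.966) and Dlst (0.965), and for Gss Nupr1 (0.922), Cox6a1 (0.896) and Hint1 (0.892). No gene was as near to Ggt1 (Ackr1, Gm4754 and Gem, 0.510 to 0.513) or Ggt5 (Cited2, Hsh2d and Fut10, 0.705 to 0.739).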

How the data were processed

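RNA of 48 mouse lungs was sequenced by the authors, who mapped reads to mm10 with GSNAP (named in the submitters' processing notes) and derived 1 FPKM value per gene and mouse with Cufflinks. These deposited FPKM values were used as they are, and no counts were at hand, so depth is unknown and precision comes from the spread between mice, 1 library each. The mm10 assembly is from C57BL/6J, and reads of both strains were mapped to it. Whether this lowers FPKM values in C3H was not tested, which bears on every comparison of the strains. The annotation, the use of strand and the handling of multiply mapped reads are not given in the sources used here. Akap5 was left out, as 7 mice list it at 999999999.

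Groups came from the sample labels. For each comparison its groups entered a linear model of log2(FPKM + 1) in limma 3.58.1 (R 4.3.3, lmFit, then eBayes with a trend). Genes were kept when 3 or more of those mice reached an FPKM of 1, and the Benjamini-Hochberg method over all genes kept set the threshold of 0.05. Fold changes on this scale understate the change of low genes. The 7 genes were all described, and those past the threshold were given in full. Other pathway genes were given by counts, and named where 5 or fewer of a list passed or as the partner of a member. The genes, lists and tests were chosen with earlier results of these data known. The settings varied were the pseudocount (0.1), the filter, median ratio scaling, quantile normalization, eBayes without trend, all 48 mice in 1 fit, a threshold of 0.01 and each mouse in turn. Leaving out mice 1 and 3 together was added after the data were seen. The fits were tested on simulated data.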

Additional observations from a re-analysis of the deposited data

Results flagged for a closer look

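Single mice stood apart from the other 5 of their strain and condition in 6 of 56 groups, by the gap to the nearest mouse over the whole range, judged against Dixon's critical value, which chance passes in about 1 in 20 groups. In saline C3H in hyperoxia mouse 33 stood apart for Gclc (ratio 0.721, 223 FPKM against 93.4 to 130) and Slc7a11 (ratio 0.878, 9.79 against 3.17 to 3.98). That mouse also had the highest neutrophil marker sum of all mice, 6195 FPKM. In C57B ATG hyperoxia mouse 48 stood apart for Slc7a11 (ratio 0.926, 29.7 FPKM against 6.70 to 8.40), and its neutrophil sum, 1062, was the highest of its group. In C57B saline room air mouse 13 stood apart for Gsr (ratio 0.660, 43.4 FPKM against 28.4 to 33.5) and mouse 37 for Slc7a11 (ratio 0.710, 0.979 against 0.166 to 0.402). In C3H saline room air mouse 2 stood apart for Ggt1 (ratio 0.811, 2.42 FPKM against 1.10 to 1.35).

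The rise in hyperoxia differed between the strains for Gclm (-1.05 in log2, C3H minus C57B) and Slc7a11 (-1.13), by the test of the difference itself.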

How the results depend on the processing

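The number of the 7 genes past the threshold stayed within 1.5 times its value in every comparison and alternative except these. At baseline 1 gene (Gclc) was lower in C3H at a threshold of 0.01 and without mice 1 and 3. The rise in hyperoxia differed between strains for 1 gene at 0.01. ATG in hyperoxia called 0 genes after quantile normalization, after median ratio scaling, in the fit of all 48 mice and at 0.01. After ATG in room air 1 gene was lower in C3H in the fit of all 48 mice and at 0.01. Leaving out 1 mouse gave 0 to 1 genes for sex at baseline and 0 to 1 for ATG by hyperoxia. No call changed its sign. Values that did so did not pass. In the 6 comparisons of sex, of ATG in room air and of their interactions listed next, signs changed in 14 values for sex, 5 for strain by sex, 18 for hyperoxia by sex, 10 for ATG in room air, 19 for ATG by strain and 31 for ATG by sex, in genes with a reported size of at most 0.119. In the others, with all mice kept or without mice 1 and 3, these were Ggt1 in hyperoxia -0.070 without mice 1 and 3 and -0.0068 after median ratio scaling, Ggt1 in hyperoxia by strain -0.12 after quantile normalization, Gss in hyperoxia by strain -0.035 after median ratio scaling, Ggt1 in ATG by hyperoxia -0.0014 after quantile normalization, Ggt1 in strain after ATG in room air -0.089 with a pseudocount of 0.1, and Ggt5 in strain in hyperoxia -0.048 after quantile normalization. With 1 mouse left out, Ggt1 ran from -0.048 to 0.13 in ATG by hyperoxia, from -0.020 to 0.30 in hyperoxia by strain, from -0.023 to 0.16 in hyperoxia in ATG mice, from -0.048 to 0.13 in hyperoxia in saline mice, from -0.15 to 0.12 in strain after ATG in room air and from -0.081 to 0.24 in strain at baseline, Gss from -0.080 to 0.11 in strain at baseline, and Ggt5 from -0.14 to 0.28 in strain in hyperoxia. Counts over all genes moved by more than 1.5 times in several settings. In the fit of all 48 mice they were 2982 for strain at baseline (1832 in the 12 mice), 1915 for sex (104), 748 for strain by sex (0), 2994 for hyperoxia by strain (1880) and 306 for hyperoxia by sex (6). Without mouse 2 they were 4021, 3640, 2741, 3242 and 1270 in the same order, with mice 1 and 3 then the only saline C3HM in room air. Without mouse 19 hyperoxia by sex gave 1051. At 0.01 they were 895 for strain at baseline, 1383 after ATG in room air (2816), 2242 in hyperoxia (4243), 2149 after ATG in hyperoxia (4123), 630 for hyperoxia by strain, 70 for ATG by hyperoxia (470) and 104 for ATG in hyperoxia (868). Leaving out 1 mouse gave 243 to 1093 for ATG by hyperoxia and 443 to 1096 for ATG in hyperoxia, ATG by hyperoxia gave 313 with no filter, and sex gave 30 without mice 1 and 3. The cause was not tested. No paired analysis was possible because each mouse has its own number. With no read numbers, the low values of Slc7a11, Ggt1 and Ggt5 carry no counting interval.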
